A study of Homo sapiens with 18 samples.

Results

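Serpins are a superfamily of proteins that share a fold with an exposed loop, and 9 of their genes are described here in HAP1 cells that lack WAPL, SCC4 or both. The 9 genes are SERPINF1, SERPINF2, SERPINE2, SERPINI1, SERPINH1, SERPINB1, SERPINB6, SERPINB8 and SERPINB9, out of 34 protein-coding serpin genes and 20329 genes in the count files. They were chosen by name, with earlier results of these data known, and SERPINF1 was put first for its measured level over the 6 genotype groups. SERPINF1 is therefore described without a test, and the other members were tested gene by gene.

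HAP1 is a near-haploid human cell line, derived from a leukaemia line, that grows attached to the dish. Polyadenylated RNA was sequenced with a strand-specific protocol in 18 samples. Each of 6 groups had 3 samples: controls, ΔWAPL clone 3.3, ΔSCC4 and ΔWAPL/ΔSCC4 cells in set A, and controls and ΔWAPL clone 1.14 in set B. The labels name the sets only for the controls, and the knockouts were placed in a set by a number that their file names share. WAPL releases the cohesin ring from DNA, and SCC4, encoded by MAU2, is a part of the complex that loads it, so the groups compare cells in which cohesin stays longer on DNA, is loaded less, or both. ΔWAPL cells carry a Blasticidin cassette at WAPL and ΔSCC4 cells a Puromycin cassette at MAU2, each placed by a CRISPR cut. The ΔWAPL/ΔSCC4 cells were made by knocking out SCC4 in ΔWAPL cells, and their labels carry the clone number 3.3, so a trait of clone 3.3 and an effect of WAPL loss cannot be told apart within set A. All cells, controls included, carry the mutant p53 of the parental line. Each ΔWAPL group is a single clone, the number of clones behind the ΔSCC4 samples is not given in the sources used here, and in a comparison of the clones the clone and the set cannot be told apart. Nothing in the labels says that replicates came from separate cultures, so the p-values measure only the spread between these samples, which may be technical.

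Most serpins trap a protease: the protease cuts the loop of the serpin and stays bound to it. SERPINF2 (alpha-2-antiplasmin, the blood inhibitor of plasmin), SERPINE2 (protease nexin-1, an inhibitor of thrombin and of the plasminogen activators) and SERPINI1 (neuroserpin, which inhibits tissue plasminogen activator in the nervous system) act outside the cell. The clade B members stay inside it: SERPINB9 inhibits granzyme B, SERPINB1 inhibits neutrophil elastase and cathepsin G, SERPINB6 inhibits cathepsin G and SERPINB8 inhibits furin. SERPINF1 (pigment epithelium-derived factor, secreted, known for blocking vessel growth and for acting on neurons) and SERPINH1 (HSP47, a chaperone of collagen in the endoplasmic reticulum) keep the fold but inhibit no protease.

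The 250 bases before the start of SERPINI1 and of SERPINB9 are shown because these members carried the largest tested rise and the most repeated tested fall. They were taken from RefSeq on GRCh38.p14, chr3:167735471-167735720 on the plus strand and chr6:2903310-2903559 on the minus strand, and are written 5′ to 3′ along each gene. Capitals mark matches on either strand to the GC box searched, which was GGGCGG. They also mark the element spelled CCAAT. The last element marked, the TATA box, was spelled TATAAA.
SERPINI1: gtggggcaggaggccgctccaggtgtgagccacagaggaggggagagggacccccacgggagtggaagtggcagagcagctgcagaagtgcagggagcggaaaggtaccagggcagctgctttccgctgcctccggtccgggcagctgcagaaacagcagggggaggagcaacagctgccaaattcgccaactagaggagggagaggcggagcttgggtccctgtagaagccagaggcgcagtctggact
SERPINB9: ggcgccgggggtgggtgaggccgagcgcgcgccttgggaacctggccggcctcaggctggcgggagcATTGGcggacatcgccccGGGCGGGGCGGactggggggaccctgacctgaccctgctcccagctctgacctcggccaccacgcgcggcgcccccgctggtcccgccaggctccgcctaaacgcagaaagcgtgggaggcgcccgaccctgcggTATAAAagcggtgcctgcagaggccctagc
The SERPINI1 stretch held none of these letters and 9 CpG dinucleotides. The SERPINB9 stretch held 27 CpG dinucleotides, 2 overlapping GC boxes, a CCAAT element read on the other strand and TATAAA near its end. Of 35116 RefSeq promoters of the same length, 42.6% held a GC box, 32.0% the CCAAT element and 10.7% TATAAA, and the median number of CpG dinucleotides was 11. Entries were found for 7 of the 9 members. SERPINF1 and SERPINF2 had none, so their promoters were not examined. A match says that the letters are there, not that a factor binds.

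The total count on genes was between 10007646 and 20711127 per sample. The targeted genes followed the labels: WAPL averaged 99.2 CPM in the controls of set A, 43.7 CPM in clone 3.3 and 45.5 CPM in ΔWAPL/ΔSCC4 cells, and 121 CPM in the controls of set B against 41.3 CPM in clone 1.14. MAU2 averaged 65.6 CPM in the controls of set A, 0.702 CPM in ΔSCC4 and 0.935 CPM in ΔWAPL/ΔSCC4 cells. CPM, as printed here, are the counts of a gene relative to the total of its library after TMM scaling. None of 7 blood cell markers passed the filter on low counts, and their highest count was 7. Of 6 fibroblast markers, THY1 and COL1A1 passed it while DCN and LUM had at most 1 read. In these bulk samples fewer cells that express a gene and less RNA per cell cannot be told apart.

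SERPINF1 (chr17:1665323-1680859, plus strand, GRCh37) was low in controls, slightly higher in ΔSCC4 cells and several-fold higher wherever WAPL was missing. It stood at 24.5, 24.7 and 21.2 CPM in the controls of set A and at 23.7, 24.5 and 23.9 CPM in those of set B. In ΔWAPL cells it stood at 133, 136 and 148 CPM in clone 3.3 and at 130, 139 and 140 CPM in clone 1.14. ΔSCC4 samples held 38.2, 33.5 and 29.3 CPM, and ΔWAPL/ΔSCC4 samples 111, 97.0 and 115 CPM. Ordered by their means, the groups were control A, control B, ΔSCC4, ΔWAPL/ΔSCC4, clone 1.14 and clone 3.3. The control groups overlapped with each other, as did the clones, and no other neighbours in this order did.

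The ratio of mean SERPINF1 CPM to the controls of the same set was 5.94 in clone 3.3 and 5.69 in clone 1.14. On the log2 scale the fitted difference was 2.55 (SE 0.15) and 2.50 (SE 0.06), so the clones lay 0.06 apart with an SE of 0.13. It was 0.51 (SE 0.15) in ΔSCC4 and 2.19 (SE 0.13) in ΔWAPL/ΔSCC4 cells, both against the same controls as clone 3.3. The loss of SCC4 thus went with a 1.43-fold higher SERPINF1 level where WAPL was present, and with 0.773 of the level where it was missing. Between 329 and 2676 reads lay behind each value.

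**Figure D1:**
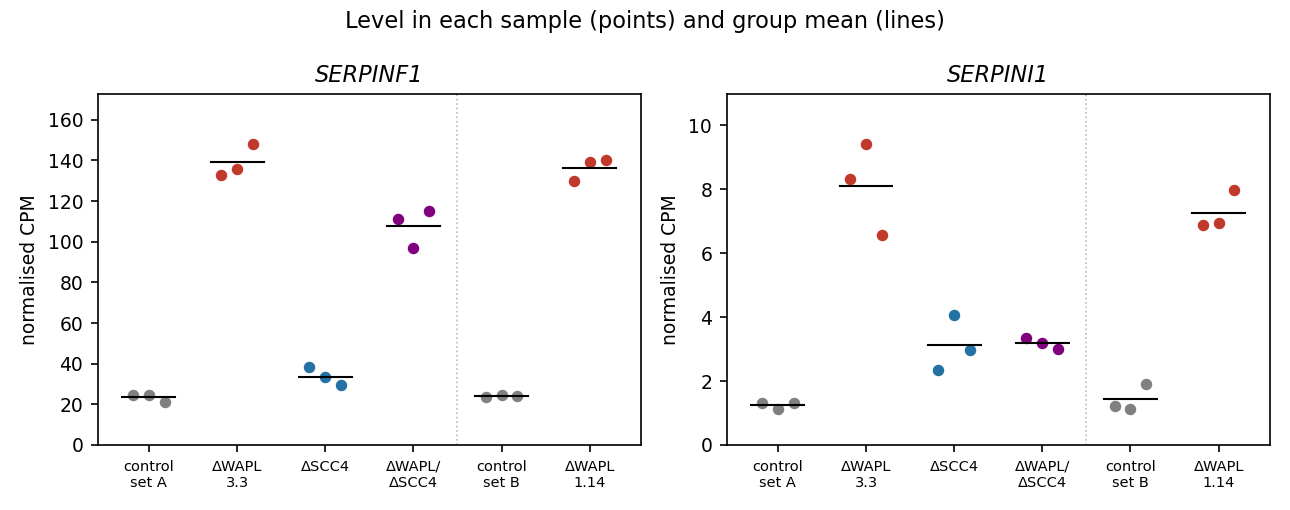
Normalised CPM of SERPINF1 (left) and SERPINI1 (right) in each of the 18 samples (points), with group means (lines), a linear axis from 0 and a dotted line between set A and set B. SERPINF1 stays high in ΔWAPL/ΔSCC4 samples (97.0 to 115 CPM), while SERPINI1 there (3.00 to 3.36 CPM) lies within the range of the ΔSCC4 samples (2.34 to 4.07 CPM).

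SERPINF2 (chr17:1646130-1658559, plus strand, GRCh37) ends 6.76 kb before SERPINF1 starts and was close to silent in every group. It had 29 reads in all, 0 to 4 per sample, with a single ΔSCC4 sample at 0. It did not pass the filter on low counts in any comparison. Its highest count was 4 in clone 3.3 and in clone 1.14, and 2 in the controls of set A. At this depth no difference between groups could be read from it.

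The other genes around SERPINF1 did not share its size of change. Within 500 kb of its start lay the starts of 19 protein-coding genes beside SERPINF2, of which 15 were tested over both clones with log2 fold changes between -0.31 and 0.50. Of these, 3 passed, a share near the 17.7% of all genes tested. HIC1 was higher (0.50, SE 0.14, adjusted p 0.0211) and PRPF8 (-0.31, SE 0.08, adjusted p 0.0130) and PITPNA (-0.21, SE 0.06, adjusted p 0.0370) were lower by edgeR's quasi-likelihood test. The nearest tested genes before SERPINF1 were WDR81 at 45.5 kb (0.04, SE 0.10), TLCD2 at 51.7 kb (0.18, SE 0.31) and PRPF8 at 77.2 kb. The nearest after it were RPA1 at 67.7 kb (0.03, SE 0.06), SMYD4 at 68.6 kb (-0.06, SE 0.09) and RTN4RL1 at 263.3 kb (0.13, SE 0.13). In single comparisons the count of neighbours past the threshold was 1 of 15 in clone 1.14, against 20.1% of all genes, and 1 of 15 in ΔWAPL/ΔSCC4 cells, against 7.95%. It was 0 of 15 in clone 3.3 and 0 of 16 in ΔSCC4 cells by edgeR and also 0 by DESeq2, with 3 neighbours in each at an unadjusted p under 0.05. In ΔWAPL/ΔSCC4 against ΔSCC4 cells 2 of 16 were higher and 3 lower (3 of 16 called by DESeq2), against 27.3% of all genes. SCARF1, with at most 14 reads, is counted among these 16 tested and 3 lower genes. It passed the filter on low counts only in comparisons that include ΔSCC4 samples, so no call is drawn from it.

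**Figure D2:**
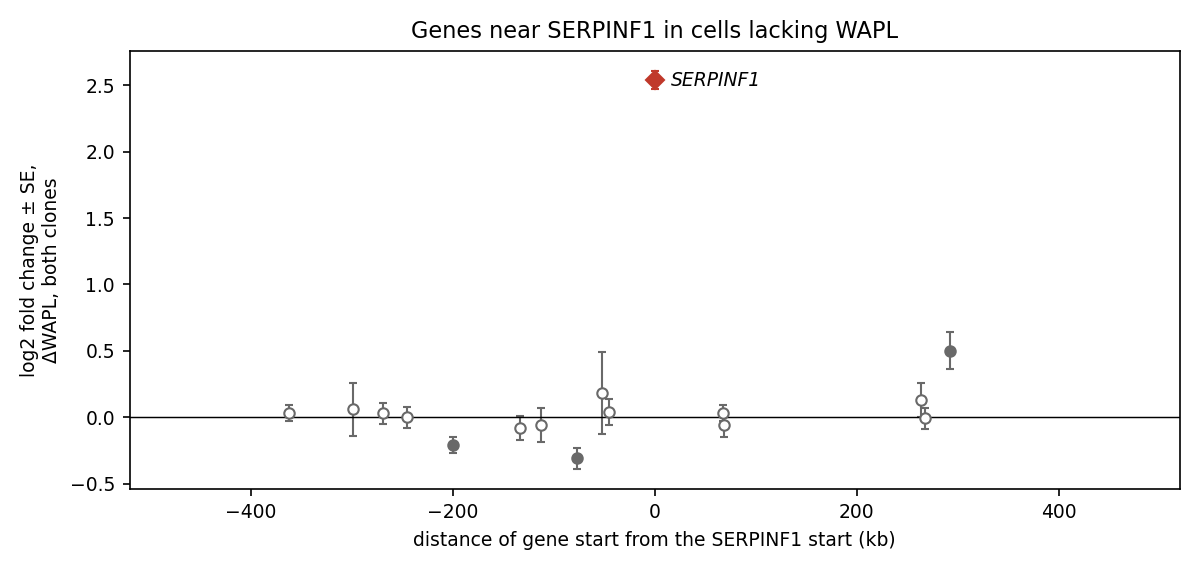
Log2 fold change with its SE in ΔWAPL cells over both clones (y axis) against the distance of each tested gene's start from the SERPINF1 start in kb (x axis). Filled circles passed an adjusted p of 0.05, open circles did not, and the diamond is SERPINF1, which was not tested. SERPINF1 lies at 2.54 and the 15 neighbours between -0.31 and 0.50.

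When both clones were fitted together, each against the controls of its own set, 6 of the 7 tested members other than SERPINF1 passed an adjusted p of 0.05, where 17.7% of 12786 genes did. SERPINI1, SERPINE2 and SERPINB8 were higher (8.56% of all genes) and SERPINB9, SERPINB1 and SERPINB6 were lower (9.13%). SERPINH1 did not pass. With the replicate number as a block, 3 members passed, SERPINI1, SERPINB8 and SERPINB9, against 12% of genes. Each tested member had at least 13 reads in every sample, so none passed the filter on low counts through its highest group alone. The members moved in both directions, with a median of -0.22 on the log2 scale against 0.00 over all genes tested.

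The same count was 3 of 7 in clone 3.3, where 8.07% of 12489 genes passed, and 5 of 7 in clone 1.14, where 20.1% of 12636 did. In clone 3.3 SERPINI1 and SERPINE2 were higher (4.17% of genes) and SERPINB9 lower (3.90%). In clone 1.14 SERPINI1 and SERPINB8 were higher (8.70%) and SERPINB9, SERPINB1 and SERPINH1 lower (11.4%). The replicate numbers pair clone 1.14 with its controls, and with them as a block 6 of 7 members passed against 24% of genes. The WAPL effect of clone 3.3 over its controls was also tested against that of clone 1.14 over its own. No member passed this test, by edgeR or by DESeq2, where 2.65% of genes did in edgeR, and 4 members had an unadjusted p under 0.05.

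ΔSCC4 and ΔWAPL/ΔSCC4 cells share their controls with clone 3.3, so the counts of these comparisons are not independent. In ΔSCC4 cells 3 of 7 members passed, against 9.49% of 12503 genes, SERPINI1 and SERPINB8 being higher (5.45%) and SERPINB9 lower (4.03%). The replicate numbers pair ΔSCC4 with its controls, and with them as a block 4 of 7 members passed against 46.0% of genes. In ΔWAPL/ΔSCC4 cells 2 passed, against 7.95% of 12594 genes, SERPINI1 and SERPINE2, both higher (4.65%). Between the controls of set B and set A no member passed by edgeR or DESeq2, with 0.64% of genes past the threshold in edgeR and 2 members at an unadjusted p under 0.05.

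**Figure D3:**
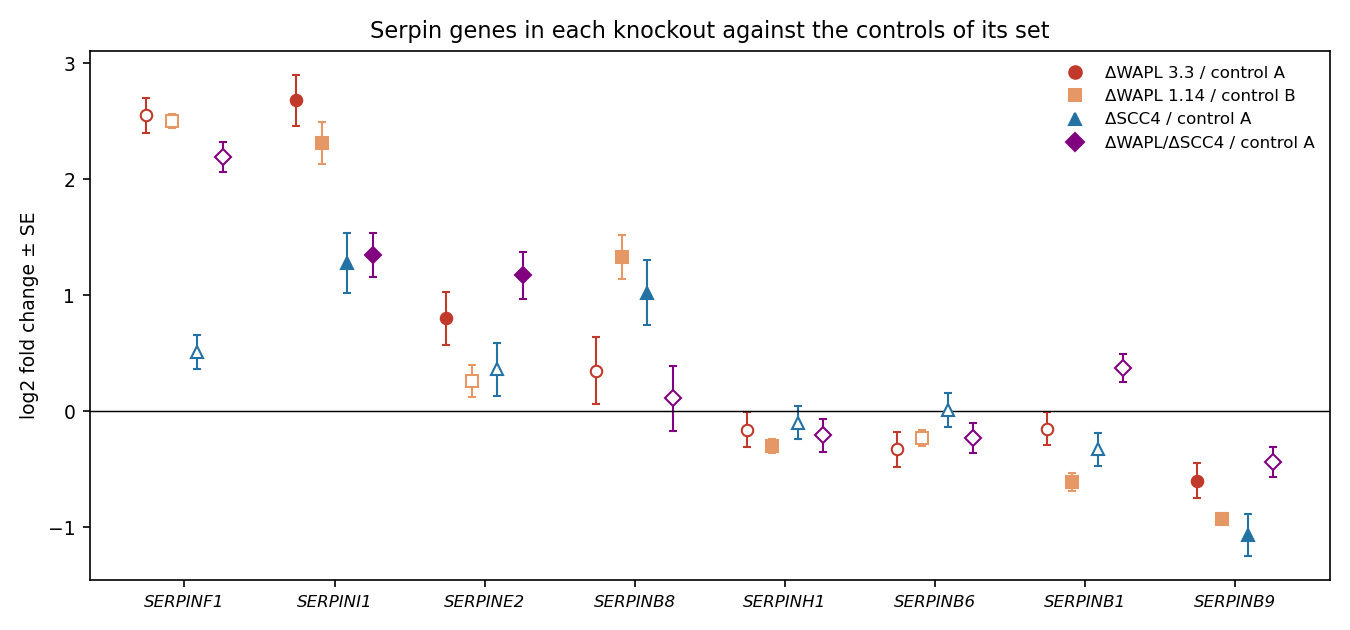
Log2 fold change with its SE of each measured member (x axis) in the 4 knockout groups against the controls of their set. Filled symbols passed an adjusted p of 0.05, open symbols did not, and SERPINF1 was not tested. SERPINI1 lies next to SERPINF1 in both ΔWAPL clones (2.68 and 2.31 against 2.55 and 2.50) and below it in ΔWAPL/ΔSCC4 cells (1.35 against 2.19).

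SERPINI1 (chr3:167453031-167543357, plus strand, GRCh37), the inhibitor of tissue plasminogen activator, rose in every knockout group. It stood at 1.30, 1.11 and 1.31 CPM in the controls of set A and 1.23, 1.14 and 1.91 CPM in those of set B. Clone 3.3 held 8.32, 9.41 and 6.58 CPM and clone 1.14 held 6.89, 6.95 and 7.97 CPM. Both clones lay clear of their controls, with a log2 fold change of 2.68 (SE 0.22, edgeR adjusted p 1.15e-06) in clone 3.3 and 2.31 (SE 0.18, edgeR adjusted p 0.000175) in clone 1.14.

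ΔSCC4 samples held 2.34, 4.07 and 2.97 CPM of SERPINI1 and ΔWAPL/ΔSCC4 samples 3.36, 3.20 and 3.00 CPM. Both groups lay above every control of set A and overlapped with each other. The log2 fold change was 1.28 (SE 0.26, edgeR adjusted p 0.00959) in ΔSCC4 and 1.35 (SE 0.19, edgeR adjusted p 0.00110) in ΔWAPL/ΔSCC4 cells. Without control A replicate 2 the ΔSCC4 value was 1.20 with an adjusted p of 0.0598. The ΔWAPL/ΔSCC4 cells lay 0.06 (SE 0.21, edgeR adjusted p 0.858) from ΔSCC4 cells, and 1.34 below clone 3.3 on the log2 scale (-1.34, SE 0.17, edgeR adjusted p 5.2e-05). SERPINI1 rested on 17 to 167 reads per sample. PDCD10, whose start lies 304 bp away on the opposite strand, was chosen after its values were seen. It rose by 0.43 (SE 0.10, edgeR adjusted p 0.00973) over both clones, and stood at 0.04 in ΔSCC4 cells. PDCD10 did not pass in clone 3.3 (0.46, edgeR adjusted p 0.0867) or clone 1.14 (0.37, edgeR adjusted p 0.142) alone.

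SERPINE2 (chr2:224839762-224904035, minus strand, GRCh37), the inhibitor of thrombin and of the plasminogen activators, rose in both groups that carry the clone number 3.3. The controls of set A held 1.82, 1.36 and 1.73 CPM, clone 3.3 held 2.79, 3.33 and 2.59 CPM, and ΔWAPL/ΔSCC4 samples 4.15, 3.75 and 3.22 CPM. All knockout samples of set A lay above every control of set A, including ΔSCC4 at 2.21, 2.24 and 1.94 CPM. In set B the controls stood at 3.08, 2.76 and 2.53 CPM, already near the knockout level of set A, and clone 1.14 at 3.18, 3.09 and 3.74 CPM.

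The SERPINE2 log2 fold change was 1.17 (SE 0.20, edgeR adjusted p 0.00375) in ΔWAPL/ΔSCC4 cells and 0.80 (SE 0.23, edgeR adjusted p 0.0438) in clone 3.3. In clone 1.14 it was 0.26 (SE 0.14, edgeR adjusted p 0.243) and in ΔSCC4 cells 0.36 (SE 0.23, edgeR adjusted p 0.380). The controls of set B stood 0.75 (SE 0.20, edgeR adjusted p 0.166) above those of set A, a value close to the 0.80 of clone 3.3. In a fit over all 18 samples the difference between the controls passed (0.76, edgeR adjusted p 0.0216). The call in clone 3.3 was lost without control A replicate 2 (0.68, adjusted p 0.238) or 3 (0.85, adjusted p 0.0673) and without clone 3.3 replicate 1 (0.85, adjusted p 0.0738) or 2 (0.69, adjusted p 0.224). DESeq2 gave 0.83 with an adjusted p of 0.101 there. Over both clones the value was 0.52 (SE 0.14, edgeR adjusted p 0.0224), and the call was lost without control A replicate 2 (0.44, adjusted p 0.0527), clone 3.3 replicate 2 (0.44, adjusted p 0.0565) or clone 1.14 replicate 3 (0.51, adjusted p 0.0511), or when a replicate block was added (0.52, adjusted p 0.0946).

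SERPINB9, SERPINB1 and SERPINB6 lie together on chromosome 6, where the starts of SERPINB1 and SERPINB6 are 130.2 kb apart. SERPINB9 (chr6:2887504-2903543, minus strand, GRCh37), the granzyme B inhibitor, fell in both ΔWAPL clones and in ΔSCC4 cells. It stood at 86.8, 106 and 113 CPM in the controls of set A and at 130, 129 and 125 CPM in those of set B. Clone 3.3 held 75.0, 67.0 and 62.6 CPM, clone 1.14 held 68.2, 65.7 and 69.0 CPM, ΔSCC4 samples 40.9, 44.0 and 61.7 CPM, and ΔWAPL/ΔSCC4 samples 69.6, 81.9 and 73.6 CPM. Every knockout sample lay below every control of its set.

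The SERPINB9 log2 fold change was -0.93 (SE 0.05, edgeR adjusted p 4.6e-05) in clone 1.14, -0.60 (SE 0.15, edgeR adjusted p 0.0175) in clone 3.3 and -1.07 (SE 0.18, edgeR adjusted p 0.00363) in ΔSCC4 cells. In ΔWAPL/ΔSCC4 cells it was -0.44 (SE 0.13, edgeR adjusted p 0.0781), and it passed there without control A replicate 1 (-0.53, adjusted p 0.00549) and in DESeq2 (-0.45, adjusted p 0.0453). The call in clone 3.3 was lost without control A replicate 2 (-0.58, adjusted p 0.110) or 3 (-0.52, adjusted p 0.0519) and without clone 3.3 replicate 2 (-0.59, adjusted p 0.110) or 3 (-0.55, adjusted p 0.0781). How reads shared with the nearby SERPINB9P1, a locus of the same family, were counted is not given in the sources used here.

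SERPINB1 (chr6:2832566-2842193, minus strand, GRCh37), the elastase and cathepsin G inhibitor, fell in clone 1.14 and stood highest in ΔWAPL/ΔSCC4 cells. Controls of set A held 22.4, 25.0 and 23.7 CPM, clone 3.3 held 22.8, 20.0 and 22.3 CPM, ΔSCC4 samples 16.6, 20.2 and 20.4 CPM, and ΔWAPL/ΔSCC4 samples 30.1, 33.2 and 28.8 CPM. Controls of set B held 27.0, 29.0 and 27.7 CPM and clone 1.14 held 18.9, 16.9 and 19.0 CPM. Clone 3.3 overlapped with its controls, while clone 1.14 and ΔSCC4 lay below and ΔWAPL/ΔSCC4 above theirs. The log2 fold change was -0.61 (SE 0.08, edgeR adjusted p 0.00179) in clone 1.14, -0.15 (SE 0.14, edgeR adjusted p 0.705) in clone 3.3 and 0.37 (SE 0.12, edgeR adjusted p 0.107) in ΔWAPL/ΔSCC4 cells. Over both clones it was -0.37 (SE 0.09, edgeR adjusted p 0.0124), and a replicate block gave an adjusted p of 0.0673. In ΔSCC4 cells it was -0.33 (SE 0.14, edgeR adjusted p 0.202), and with the replicate numbers as a block, which pair these samples, the adjusted p was 0.00798.

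SERPINB6 (chr6:2948393-2972399, minus strand, GRCh37), the cathepsin G inhibitor, passed when both clones were fitted together and in no single comparison. It lay between 113 and 144 CPM in the controls of set A, 101 and 110 CPM in clone 3.3, 105 and 119 CPM in the controls of set B and 91.3 and 98.4 CPM in clone 1.14. Both clones lay below their controls. The fall of 0.27 on the log2 scale over both clones passed (-0.27, SE 0.07, edgeR adjusted p 0.0156) but not when a replicate block was added (adjusted p 0.0699), while those of clone 3.3 (-0.33, SE 0.15, edgeR adjusted p 0.241) and clone 1.14 (-0.23, SE 0.07, edgeR adjusted p 0.0633) did not. With the replicate numbers, which pair clone 1.14 with its controls, as a block its adjusted p was 0.0317, and without control B replicate 3 it was -0.27 with an adjusted p of 0.0287. In ΔSCC4 cells SERPINB6 stood at 113 to 143 CPM with a log2 fold change of 0.01 (SE 0.15).

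SERPINB8 (chr18:61637263-61687013, plus strand, GRCh37), the furin inhibitor, was expressed near the limit of the counts, with 13 to 55 reads per sample. The controls of set B held 1.09, 1.08 and 0.900 CPM and clone 1.14 held 2.92, 2.14 and 2.66 CPM. The controls of set A held 0.977, 0.925 and 0.894 CPM, clone 3.3 held 1.10, 1.56 and 0.997 CPM, ΔSCC4 samples 1.37, 2.24 and 2.21 CPM and ΔWAPL/ΔSCC4 samples 1.19, 1.11 and 0.735 CPM. ΔSCC4 and both clones lay above their controls and ΔWAPL/ΔSCC4 overlapped with them. The log2 fold change was 1.33 (SE 0.19, edgeR adjusted p 0.00324) in clone 1.14, 0.35 (SE 0.29, edgeR adjusted p 0.644) in clone 3.3 and 1.02 (SE 0.28, edgeR adjusted p 0.0454) in ΔSCC4 cells. The ΔSCC4 call was lost in DESeq2 (1.02, adjusted p 0.119) and without control A replicate 2 (1.01, adjusted p 0.165) or 3 (0.98, adjusted p 0.0987) or ΔSCC4 replicate 2 (0.93, adjusted p 0.144) or 3 (0.89, adjusted p 0.112). Over both clones the value was 0.91 (SE 0.20, edgeR adjusted p 0.00555).

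**Figure D4:**
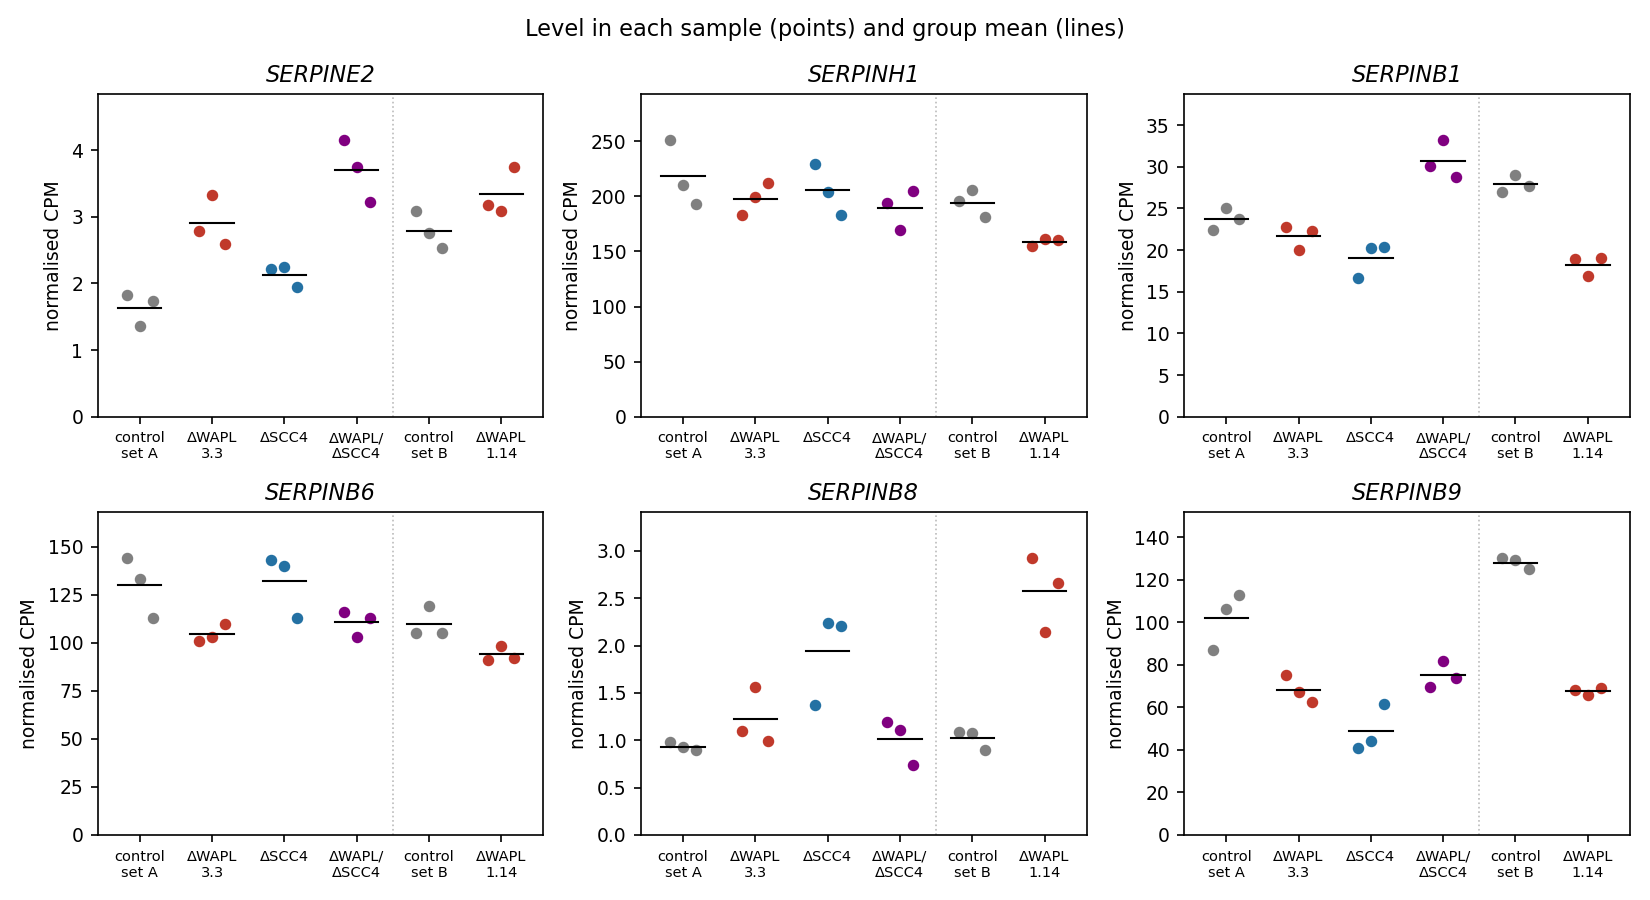
Normalised CPM of SERPINE2, SERPINH1, SERPINB1, SERPINB6, SERPINB8 and SERPINB9 in each of the 18 samples (points), with group means (lines), linear axes from 0 and a dotted line between set A and set B. In the SERPINB9 panel every knockout sample lies below every control of its set, and in the SERPINH1 panel the groups of set A overlap (169 to 251 CPM).

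SERPINH1 (chr11:75273101-75283828, plus strand, GRCh37), the collagen chaperone, had the most reads of the members by CPM and changed little. It stood at 251, 210 and 193 CPM in the controls of set A and at 196, 206 and 181 CPM in those of set B. Clone 3.3 held 183, 199 and 212 CPM, overlapping with its controls, and clone 1.14 held 155, 161 and 160 CPM, below its controls. The log2 fold change was -0.30 (SE 0.06, edgeR adjusted p 0.0163) in clone 1.14, -0.16 (SE 0.15, edgeR adjusted p 0.692) in clone 3.3 and -0.22 (SE 0.08, edgeR adjusted p 0.0614) over both. The clone 1.14 call was lost without control B replicate 1 (-0.27, adjusted p 0.0634) or clone 1.14 replicate 1 (-0.29, adjusted p 0.0683) or 3 (-0.30, adjusted p 0.0566). The value over both passed without control A replicate 3 (-0.26, adjusted p 0.0144) or clone 3.3 replicate 3 (-0.25, adjusted p 0.0365), and in DESeq2 (-0.22, adjusted p 0.0441). ΔSCC4 samples held 229, 204 and 183 CPM and ΔWAPL/ΔSCC4 samples 194, 169 and 205 CPM, and neither group passed.

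SERPINH1 is known as a heat shock protein. Of 7 other heat shock genes only HSP90AA1 passed over both clones, with a log2 fold change of 0.35 (SE 0.08, edgeR adjusted p 0.00675), against 17.7% of all genes, and their median was -0.04. Of 13 tested collagen genes and enzymes of collagen folding 2 were higher (8.56% of all genes) and 3 lower (9.13%) over both clones, with a median of -0.09. COL5A2, a fibrillar collagen, fell by 0.85 (SE 0.15, edgeR adjusted p 0.00111). PLOD2, a lysyl hydroxylase, rose by 0.65 (SE 0.12, edgeR adjusted p 0.00157), and CRTAP, a part of the collagen prolyl 3-hydroxylase complex, fell by 0.57 (SE 0.06, edgeR adjusted p 5.15e-06).

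Per kilobase of exon, which allows levels of different genes to be compared, SERPINF1 moved from the middle of the members to the top. Each value here is the mean ± SD of 3 samples in CPM per kb. In the controls of set A it was 34.7 ± 4.76 for SERPINH1, 24.6 ± 3.30 for SERPINB9, 9.84 ± 1.17 for SERPINB6, 7.85 ± 0.667 for SERPINF1 and 7.78 ± 0.432 for SERPINB1. SERPINI1 (0.583 ± 0.0535), SERPINE2 (0.183 ± 0.0275), SERPINB8 (0.162 ± 0.00727) and SERPINF2 (0.0437 ± 0.0138) lay well below. In clone 3.3 SERPINF1 reached 46.6 ± 2.59 CPM per kb, against 31.5 ± 2.36 for SERPINH1 and 16.5 ± 1.52 for SERPINB9, and in clone 1.14 45.7 ± 1.87, against 25.3 ± 0.462 and 16.3 ± 0.413. In ΔWAPL/ΔSCC4 cells SERPINF1 (36.0 ± 3.17) and SERPINH1 (30.1 ± 2.99) lay closer. SERPINI1 rose to 3.81 ± 0.671 in clone 3.3, still far below SERPINF1 on this scale. The lengths count every annotated exon base of a gene, whichever transcript is made.

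The effect of losing SCC4 was compared between cells with and without WAPL, within set A, after the values by group had been seen. The difference is the log2 fold change of ΔWAPL/ΔSCC4 over clone 3.3 minus that of ΔSCC4 over control. Of the 7 members 3 passed this test, against 11.3% of 12817 genes. SERPINI1 was lower (5.48%), with a difference of -2.61 (SE 0.30, edgeR adjusted p 2.49e-05): losing SCC4 went with a higher level where WAPL was present and a lower level where it was missing. SERPINB1 (0.84, SE 0.17, edgeR adjusted p 0.00402) and SERPINB9 (1.22, SE 0.22, edgeR adjusted p 0.00166) were higher (5.85%). SERPINB9 fell with SCC4 loss where WAPL was present and stood 0.14 (SE 0.12, edgeR adjusted p 0.554) above clone 3.3 where it was missing. For SERPINF1 the difference was -0.87 (SE 0.18), given as a description.

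In the direct comparison of ΔWAPL/ΔSCC4 with clone 3.3, 2 of 7 members passed, against 10.6% of 12544 genes. SERPINI1 was lower (4.55%), as given above, and SERPINB1 higher (6.05%), at 0.50 (SE 0.12, edgeR adjusted p 0.0149), a call lost without clone 3.3 replicate 2 (0.46, adjusted p 0.0950) or ΔWAPL/ΔSCC4 replicate 1 (0.52, adjusted p 0.0538). SERPINF1 differed by -0.37 (SE 0.11), with the groups not overlapping. Against ΔSCC4 cells, a comparison also added after the values were seen, 4 of 7 passed, against 27.3% of 12604 genes. SERPINB1 (0.69, SE 0.14, edgeR adjusted p 0.00150), SERPINE2 (0.80, SE 0.20, edgeR adjusted p 0.00769) and SERPINB9 (0.62, SE 0.15, edgeR adjusted p 0.00674) were higher (13.7%). SERPINB8 was lower (13.6%), at -0.91 (SE 0.29, edgeR adjusted p 0.0265). The SERPINB8 call was lost in DESeq2 (-0.92, adjusted p 0.0802) and without ΔSCC4 replicate 2 (-0.82, adjusted p 0.115) or 3 (-0.77, adjusted p 0.0540) or ΔWAPL/ΔSCC4 replicate 3 (-0.73, adjusted p 0.107). The SERPINB9 call was lost without ΔSCC4 replicate 2 (0.54, adjusted p 0.0701). SERPINF1 stood 1.68 (SE 0.14) higher in ΔWAPL/ΔSCC4 than in ΔSCC4 cells.

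Most other serpins were not expressed. Of the other 25 serpin genes 12 had no read in any sample and 23 never reached 10 reads. The 9 serpin genes on chromosome 14 and the 10 on chromosome 18 held a single tested gene each, SERPINA1 and SERPINB8. SERPINA1 (alpha-1-antitrypsin, the blood inhibitor of neutrophil elastase) had 13 to 19 reads in ΔSCC4 samples, 4 to 9 in the controls of set A, 1 to 6 in clone 3.3, 5 to 13 in ΔWAPL/ΔSCC4 samples, 1 to 9 in the controls of set B and 1 in each sample of clone 1.14. It passed the filter only in comparisons that include the ΔSCC4 samples, where it was highest, so no call is drawn from it. SERPING1, the inhibitor of complement C1 esterase, had 0 to 17 reads and was not tested.

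Some of the proteases and receptors around the secreted inhibitors fell. A list of genes of plasminogen activation, thrombin signalling and related receptors had 9 in the files, of which 6 were tested. Over both clones 4 of the 6 were lower, against 9.13% of all genes, with a median of -0.52. PLAUR, the urokinase receptor, fell from 6.20 to 7.68 CPM in the controls of set A to 2.94 to 3.59 CPM in clone 3.3, and from 7.09 to 7.80 CPM to 1.66 to 1.87 CPM in set B, a log2 fold change of -1.53 (SE 0.17, edgeR adjusted p 9.48e-06) over both clones. PLAU, urokinase, fell by 0.73 (SE 0.14, edgeR adjusted p 0.00206), and F2RL1, a receptor cleaved by serine proteases, fell by 0.57 (SE 0.11, edgeR adjusted p 0.00162). In clone 3.3 alone PLAU (-0.46, edgeR adjusted p 0.242) and F2RL1 (-0.46, edgeR adjusted p 0.154) did not pass. The fall of PLAUR was smaller in clone 3.3 than in clone 1.14, by 0.99 (SE 0.20, edgeR adjusted p 0.015). In clone 1.14 4 of 5 tested genes were lower and 1 higher, against 20.1% of genes called in either direction. In ΔSCC4 cells 3 of 5 tested genes were lower, against 4.03% of all genes (46.0% of genes passed in either direction with the block). In clone 3.3 and in ΔWAPL/ΔSCC4 cells 1 of 6 was lower and 1 higher, against 8.07% and 7.95% of genes called in either direction. The higher gene was PLAT in both. PLAT, tissue plasminogen activator and the main target of SERPINI1, was named after its values were seen: it had 8 to 11 reads in the controls of set A, 13 to 28 in clone 3.3, 21 to 24 in ΔWAPL/ΔSCC4 samples, 1 to 2 in ΔSCC4 samples, 8 to 13 in the controls of set B and 6 to 8 in clone 1.14. It did not pass the filter in the clone 1.14 and ΔSCC4 comparisons, so no call is drawn from it.

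Of 12 proteases that clade B serpins are known to inhibit or that act inside the cell, 4 were tested and FURIN alone passed over both clones, at -0.32 (SE 0.08, edgeR adjusted p 0.0146), where 17.7% of all genes did. Of the 6 proposed receptors and binding partners of SERPINF1, 0 passed over both clones by edgeR or DESeq2 and 0 had an unadjusted p under 0.05, with a median of -0.13. In ΔWAPL/ΔSCC4 cells 1 of them was lower, where 7.95% of all genes passed in either direction. The fibroblast marker THY1 fell by 1.22 (SE 0.26) over both clones. It had 17 to 22 reads in the controls of set A and 15 to 26 in those of set B. Clone 3.3 held 10 to 12 reads and clone 1.14 held 4 to 8. THY1 did not pass the filter in ΔWAPL/ΔSCC4 against clone 3.3, so no call is drawn from it. The summed level of the 6 fibroblast markers was 13.7 to 15.1 CPM in the controls of set A, 16.6 to 22.0 CPM in clone 3.3, 12.1 to 13.0 CPM in ΔSCC4, 28.5 to 32.8 CPM in ΔWAPL/ΔSCC4, 22.1 to 23.9 CPM in the controls of set B and 19.9 to 21.8 CPM in clone 1.14. That sum was nearly all COL1A1, and its part in the results above was not tested.

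As a description, the gene whose log2 CPM over the 18 samples was most like that of SERPINF1 was KCTD8, with Pearson's r of 0.956, among 11562 genes whose mean log2 CPM was 1 or more. GALNT13 (0.946), CBLN1 (0.921), ARSJ (0.920) and POPDC3 (0.913) followed. SERPINI1 ranked 21st, at 0.880, and SERPINE2 214th, at 0.710. The other members lay between -0.61 for SERPINB6 and 0.31 for SERPINB8. The 18 points are 6 groups of 3 that share a cell line and, within a set, their controls. KCTD8 averaged 1.15 CPM in the controls of set A, 5.47 CPM in clone 3.3, 1.29 CPM in ΔSCC4 and 4.24 CPM in ΔWAPL/ΔSCC4 cells. It averaged 1.33 CPM in the controls of set B and 4.07 CPM in clone 1.14.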

How the data were processed

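HAP1 RNA was sequenced in 18 samples, 3 in each of 6 groups. Libraries were made from poly(A) RNA with strand kept, and alignment was with TopHat. The files deposited by the authors hold raw counts per gene. The submitters' processing notes name TopHat2 2.0.9, HTSeq, DESeq2 1.10.1 and hg19, and the study's methods name a later TopHat version. The annotation used for counting, and whether it used the strand, are not given in the sources used here. Of 20329 gene identifiers 96.6% were found in the GENCODE annotation of GRCh37, which gave symbols and positions. Lines that name no gene (20.3% to 22.6% of each file's total) were kept out.

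Each comparison was fitted with edgeR 4.0.16 (R 4.3.3): TMM scaling, filterByExpr, the quasi-likelihood test, and Benjamini-Hochberg adjustment over all genes tested, at a threshold of 0.05. Only the groups compared entered a fit, and the set was a covariate over both clones. Standard errors were obtained by dividing the size of each log2 fold change by the root of its F statistic. Values per sample are TMM-scaled CPM. Fits were tested on simulated data. The alternatives were DESeq2 1.42.0, DESeq2 size factors in edgeR, testing without the filter, a minimum of 10 counts per sample, all 18 samples in a single fit, a block for the replicate number, and leaving out each replicate.

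Same-numbered samples were checked for shared deviations from their group means. The correlation was 0.130 to 0.483 between clone 1.14 and its controls and 0.223 to 0.842 between ΔSCC4 and its controls, so these numbers were taken to pair samples. It was -0.658 to -0.030 between clone 3.3 and its controls and -0.717 to 0.381 between ΔWAPL/ΔSCC4 and its controls, which were not paired. No replicates agreed within sampling noise (lowest chi-square per degree of freedom 1.61), so each counted once. This does not show that they came from separate cultures. The replicates of clone 1.14 lay closest to each other, at 1.61 to 4.24, against 8.81 to 34.59 for the controls of set B.

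The members and gene lists were chosen with earlier results of these data known. Named beside them are tested serpins, at most 3 genes of each list with the largest log2 fold change past the threshold over both clones, neighbours of SERPINF1 within 500 kb that passed with a size of at least 1 (SCARF1) and the nearest 3 tested on each side, and the 5 genes most correlated with SERPINF1. HIC1, PITPNA, PDCD10, COL1A1, DCN, LUM, PLAT and SERPING1 were named after their values were seen. Promoter sequences came from RefSeq on GRCh38.p14 and were not converted to GRCh37. The comparison of ΔWAPL/ΔSCC4 with ΔSCC4 and that of the SCC4 effects were added after seeing the data.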

Additional observations from a re-analysis of the deposited data

Results flagged for a closer look

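The effect of SCC4 loss differed between cells with and without WAPL for 3 members, by a test of the difference itself in edgeR, a comparison added after the data were seen. SERPINI1 differed by -2.61, SERPINB1 by 0.84 and SERPINB9 by 1.22 on the log2 scale, each as the effect in cells lacking WAPL minus that in cells with WAPL. All 3 also passed in DESeq2, in a fit over all 18 samples, with the replicate number as a block, and without any single sample of set A.

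No group had enough samples for a check of single samples that stand apart.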

How the results depend on the processing

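The log2 fold changes of SERPINF1 stayed within the replicate spread under every alternative. No call of a member turned its direction, and the 21 sign changes below the threshold had a reported size of at most 0.21. With the replicate number as a block, members called over both clones went from 6 to 3, and calls over all genes from 17.7% to 12%. In clone 3.3 members called went from 3 to 1, and calls over all genes from 8.07% to 6.14%. The numbers were found to pair clone 1.14 with its controls but not clone 3.3 with its own. In a fit over all 18 samples, members called went from 2 to 4 in ΔWAPL/ΔSCC4 against control. SERPINB1 (0.37, edgeR adjusted p 0.0205) and SERPINB9 (-0.44, edgeR adjusted p 0.0378) were added. The 7.95% of genes that passed there belongs to the main fit, so the 4 are not set against it. Between the controls members called went from 0 to 1 in that fit, which was SERPINE2, and calls over all genes from 80 to 408. Leaving out 1 replicate gave 1 to 3 members in clone 3.3 (686 to 1180 calls over all genes) and 1 to 3 in ΔSCC4 (662 to 2317). It gave 1 to 2 in ΔWAPL/ΔSCC4 against clone 3.3 (861 to 1805) and 2 to 4 against ΔSCC4 (2080 to 5020). The cause was not tested.

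Over all genes, the 1186 calls in ΔSCC4 became 5754 with the replicate block, which pairs these samples, and 2556 in the fit over all 18 samples, where the 1008 of clone 3.3 became 1753. The 339 calls for the difference in WAPL effect between the clones became 211 with at least 10 counts and 173 with the block. The 80 calls between the controls became 168 in DESeq2, 127 without the filter, 408 in the fit over all 18 samples and 162 with the block. Leaving out 1 replicate gave 662 to 2317 in ΔSCC4, 1415 to 4820 in clone 1.14, 686 to 1180 in clone 3.3, 586 to 1552 in ΔWAPL/ΔSCC4, 861 to 1805 against clone 3.3, 2080 to 5020 against ΔSCC4 and 0 to 107 between the controls. Depth limited SERPINF2 (0 to 4 reads) and SERPINB8 (13 to 55 reads) most.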

Other observations

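The SCC4 effect without WAPL minus that with WAPL was also tested for genes of plasminogen activation, thrombin signalling and related receptors. By edgeR PLAUR, PLAU and F2RL1 were higher, where 5.85% of all genes were. F2R (0.82, SE 0.42, edgeR adjusted p 0.245) and LRP1 (-0.31, SE 0.27, edgeR adjusted p 0.521) did not pass. PLAT, the last of the 6 tested, had 1 to 28 reads per sample and did not pass the filter in ΔSCC4 against control. It is left out of these genes, and no call is drawn from it. With PLAT among the 6 tested, DESeq2 called 3. PLAUR, the urokinase receptor, differed by 2.09 (SE 0.27, edgeR adjusted p 8.76e-05), PLAU by 1.76 (SE 0.26, edgeR adjusted p 0.000363) and F2RL1 by 1.48 (SE 0.30, edgeR adjusted p 0.00377). In ΔSCC4 against control PLAUR fell by 1.79 (SE 0.22, edgeR adjusted p 0.000434) and PLAU by 1.57 (SE 0.21, edgeR adjusted p 0.000853). In ΔWAPL/ΔSCC4 against clone 3.3 they stood at 0.29 (SE 0.18, edgeR adjusted p 0.364) and 0.18 (SE 0.20, edgeR adjusted p 0.652).

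Of 7 heat shock genes 4 were higher in ΔWAPL/ΔSCC4 than in ΔSCC4 cells, against 13.7% of all genes. They were HSP90AA1 (0.63, SE 0.12), HSPH1 (0.63, SE 0.12), HSPA1A (0.57, SE 0.13) and HSPA1B (0.60, SE 0.13), of which the last pair are near-identical copies whose reads the counting could split. SERPING1, the complement C1 esterase inhibitor, had 0 reads in each of the 3 samples of clone 1.14, 3 to 15 in the controls of set B and 4 to 17 in ΔWAPL/ΔSCC4 samples, and did not pass the filter on low counts. These genes were named after their values were seen.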
